A study of Mus musculus with 9 samples.

Results

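The genes described here are 38 genes that dividing cells switch on to copy their DNA and to separate the copies, from the helicase subunits Mcm2 to Mcm7 to the mitotic cyclins, kinases, spindle proteins and the proliferation marker Mki67. They were chosen by symbol, and 37 of the 38 were measured among the 18193 genes of the array table. Ccnb1, which encodes cyclin B1, was not analysed here because no probe set named it alone. A probe set is a group of short probes on the array that reads a transcript, and each gene was read from the brightest of its probe sets, judged by the mean of the 9 arrays. For 14 of the 37 genes, the probe set used was of a type (suffix s, x or a) that can match more than 1 transcript. Mcm3 to Mcm7, Rrm2 and Top2a were among these. Levels are on a log2 scale, so that a difference of 1 is a 2-fold difference.

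Each of the 9 arrays held RNA of CD11b-positive myeloid cells sorted from lungs of female 4get mice on the BALB/c background, aged 6 to 8 weeks. In 4get mice a green fluorescent protein (GFP) reports expression of the interleukin-4 gene. All mice, whichever cells were sorted, had received 0.5 µg of the cytokine IL-25 in 50 µL into the trachea on each of 4 days, and no array came from untreated mice. T2M (type 2 myeloid) cells, on 3 arrays, were GFP-positive, IL-5rα-negative, F4/80-positive, MHCII-low and Gr-1-intermediate. Eosinophils, on 2 arrays, were GFP-negative, IL-5rα-positive, F4/80-negative, MHCII-low and Gr-1-high. Neutrophils, on 2 arrays, were GFP-negative, IL-5rα-negative, F4/80-negative, MHCII-low and Gr-1-positive. Macrophages, on 2 arrays, were GFP-negative, IL-5rα-negative, F4/80-positive, MHCII-positive and Gr-1-negative. Each array held a pool from 4 donor mice, with 400000 cells sorted and 50 ng of RNA amplified.

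A cell that enters the cycle first loads the Mcm2 to Mcm7 helicase on replication origins, a step called licensing that needs Cdc6. Cyclin E with its kinase partner, Cdc45 and the GINS complex then start the forks, where the clamp Pcna holds the polymerases and the ribonucleotide reductase subunits Rrm1 and Rrm2 supply nucleotides. Later, cyclin A2 and the B cyclins with Cdk1 drive mitosis, motor and spindle proteins separate the chromosomes, and the anaphase-promoting complex, with Cdc20 and the ubiquitin-conjugating enzyme Ube2c, ends it. Replication genes are known targets of E2F factors, whereas many mitotic genes carry a promoter element called CHR (cell cycle genes homology region), to which complexes built on the MuvB core bind. Mature neutrophils and eosinophils are known as cells that no longer divide, and tissue macrophages can divide in place.

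Several features of the arrays bear on every comparison. The labels and the marker genes did not match throughout. The mean log2 level of 7 mature neutrophil markers, such as Csf3r and Mmp8, was 11.97 and 12.44 on the eosinophil-labelled arrays and 9.84 and 8.88 on the neutrophil-labelled arrays. That of 7 eosinophil markers was highest on the T2M arrays, at 9.18 to 9.62, against 6.87 and 6.06 on the eosinophil-labelled arrays. These genes differed on the eosinophil-labelled arrays. Epx, the eosinophil peroxidase, was at 5.01 and 5.09, and Ccr3, Prg2, Il5ra and Gata1 were at 6.05 or less. Siglecf read 10.47 and 9.01 there, and Alox15 10.9 and 8.91. That of 8 macrophage markers was highest on the neutrophil-labelled arrays, at 10.47 and 10.62, and that of 7 dendritic cell markers on the macrophage-labelled arrays, at 8.84 and 8.54. The neutrophil-labelled replicates 1 and 2 differed in the mean of 7 natural killer cell markers, at 7.84 and 5.87, against at most 7.19 on other arrays. Their means of the eosinophil markers were 7.34 and 5.31. Markers of neutrophil precursors, which are known to divide, had a mean of 4.86 to 5.34 over 8 genes on all arrays, but its genes differed. Elane ran from 3.47 to 4.36 and Mpo from 4.46 to 5.48, whereas Kit reached 7.72 and 7.57 on the macrophage-labelled arrays, Gfi1 7.51 and 6.98 on the eosinophil-labelled arrays and Cd34 7.08 on T2M replicate 2. Neutrophil replicate 2 correlated more with each macrophage array (r = 0.954) than with neutrophil replicate 1 (r = 0.916), over all 45101 probe sets. The correlation between the macrophage arrays was 0.994, and those between replicates of the other labels ran from 0.916 to 0.970. T2M replicate 1 and eosinophil replicate 1 differed between the 3′ and 5′ ends of the actin control by 0.61 and 0.54, a sign of RNA quality, against -0.10 to 0.03 elsewhere. The part of any of these in the results was not tested. In sorted pools, more cycling cells and more RNA of these genes per cell cannot be told apart.

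The promoters of these genes are shown first, because known elements differ between replication and mitosis genes. In the RefSeq promoter windows of assembly GRCm38.p6 (250 bases before to 50 after the start), 31 of the 38 genes had an entry, Ccnb1 among them. Both strands were searched for CHR (TTTGAA or TTCGAA), E2F sites (TTTGGCGC, TTTCCCGC, TTTGCCGC or TTTCGCGC), the CCAAT box (CCAAT) and the GC box (GGGCGG), and in these windows 1 hit of one motif overlapped a hit of another. CHR letters stood in 13 of 17 mitosis genes (76.5%) and 3 of 14 replication genes (21.4%), against 21.7% of all 27025 genes with a window and 17.5% of the 14452 measured ones. E2F letters stood in 6 of 14 replication genes (42.9%) and 1 of 17 mitosis genes (5.88%), against 2.6% and 3.81%. The CCAAT box stood in 25 of the 31 (80.6%), against 41.1% and 42.0%, and the GC box also in 25 of 31, against 38.2% and 57.3%. Top2a (DNA topoisomerase II alpha, chr11:99024140-99024439, minus strand), Ube2c (chr2:164769679-164769978, plus strand) and Ccnb2 (cyclin B2, chr9:70421505-70421804, minus strand) are printed as called mitosis genes with CHR letters in their windows, with CHR and CCAAT letters in capitals.
Top2a: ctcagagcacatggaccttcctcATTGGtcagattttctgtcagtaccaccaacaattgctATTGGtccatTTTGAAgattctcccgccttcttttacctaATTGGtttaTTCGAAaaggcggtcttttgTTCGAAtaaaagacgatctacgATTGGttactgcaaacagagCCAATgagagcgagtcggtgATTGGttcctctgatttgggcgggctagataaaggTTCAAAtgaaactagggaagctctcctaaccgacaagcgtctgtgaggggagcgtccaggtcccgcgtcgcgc
Ube2c: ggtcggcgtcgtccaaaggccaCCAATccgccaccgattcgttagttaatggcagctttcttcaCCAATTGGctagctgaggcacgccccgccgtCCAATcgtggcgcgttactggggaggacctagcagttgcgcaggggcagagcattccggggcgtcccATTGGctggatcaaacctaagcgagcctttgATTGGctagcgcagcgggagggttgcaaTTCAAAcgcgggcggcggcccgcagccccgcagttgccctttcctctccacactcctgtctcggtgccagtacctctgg
Ccnb2: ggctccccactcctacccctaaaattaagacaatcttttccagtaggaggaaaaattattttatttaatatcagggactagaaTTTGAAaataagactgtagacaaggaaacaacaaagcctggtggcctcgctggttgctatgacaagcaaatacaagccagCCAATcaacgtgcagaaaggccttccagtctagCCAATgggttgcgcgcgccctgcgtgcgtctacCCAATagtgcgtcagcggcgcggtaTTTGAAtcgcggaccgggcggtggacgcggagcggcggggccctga
In Top2a, CHR letters lay 179, 140, 120 and 23 bases before the start, among 6 CCAAT boxes. In Ube2c the CHR letters lay 29 bases before the start. In Ccnb2 they lay 167 bases before the start and 5 bases into the transcript. Mcm3, a subunit of the replicative helicase (chr1:20820263-20820562, minus strand), is printed as the replication gene with the most stable difference, with E2F and CCAAT letters in capitals.
Mcm3: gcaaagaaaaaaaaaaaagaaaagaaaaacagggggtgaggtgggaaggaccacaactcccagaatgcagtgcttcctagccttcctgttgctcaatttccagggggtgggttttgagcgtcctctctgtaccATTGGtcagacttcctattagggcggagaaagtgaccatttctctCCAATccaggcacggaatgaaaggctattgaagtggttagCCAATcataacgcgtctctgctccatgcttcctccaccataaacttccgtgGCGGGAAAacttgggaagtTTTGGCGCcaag
Its E2F letters began 20 and 39 bases into the transcript, and its window held no CHR letters. These matches describe letters only and show no binding.

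Across the 4 labels, most cell cycle genes had their highest mean in the neutrophil label and their lowest in the eosinophil label. The replication genes did not follow this on both neutrophil-labelled arrays. Their median was 8.31 on neutrophil replicate 2 but 7.04 on replicate 1. The latter was below the T2M (8, 7.68 and 7.58) and macrophage-labelled arrays (7.64 and 7.37). The mean of the neutrophil label was the highest of the 4 for 25 of the 37 genes, where the same held for 22.6% of all genes. The mean of the eosinophil label was the lowest for 24 of the 37, against 25.1% of all genes. The macrophage label had the highest mean for 6 genes, among them Pcna, Mcm5 and Mcm7, T2M for 2, Rrm2 and Cdc45, and the eosinophil label for 4, Ccne2, Tyms, Cdc20 and Mki67.

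**Figure D1:**
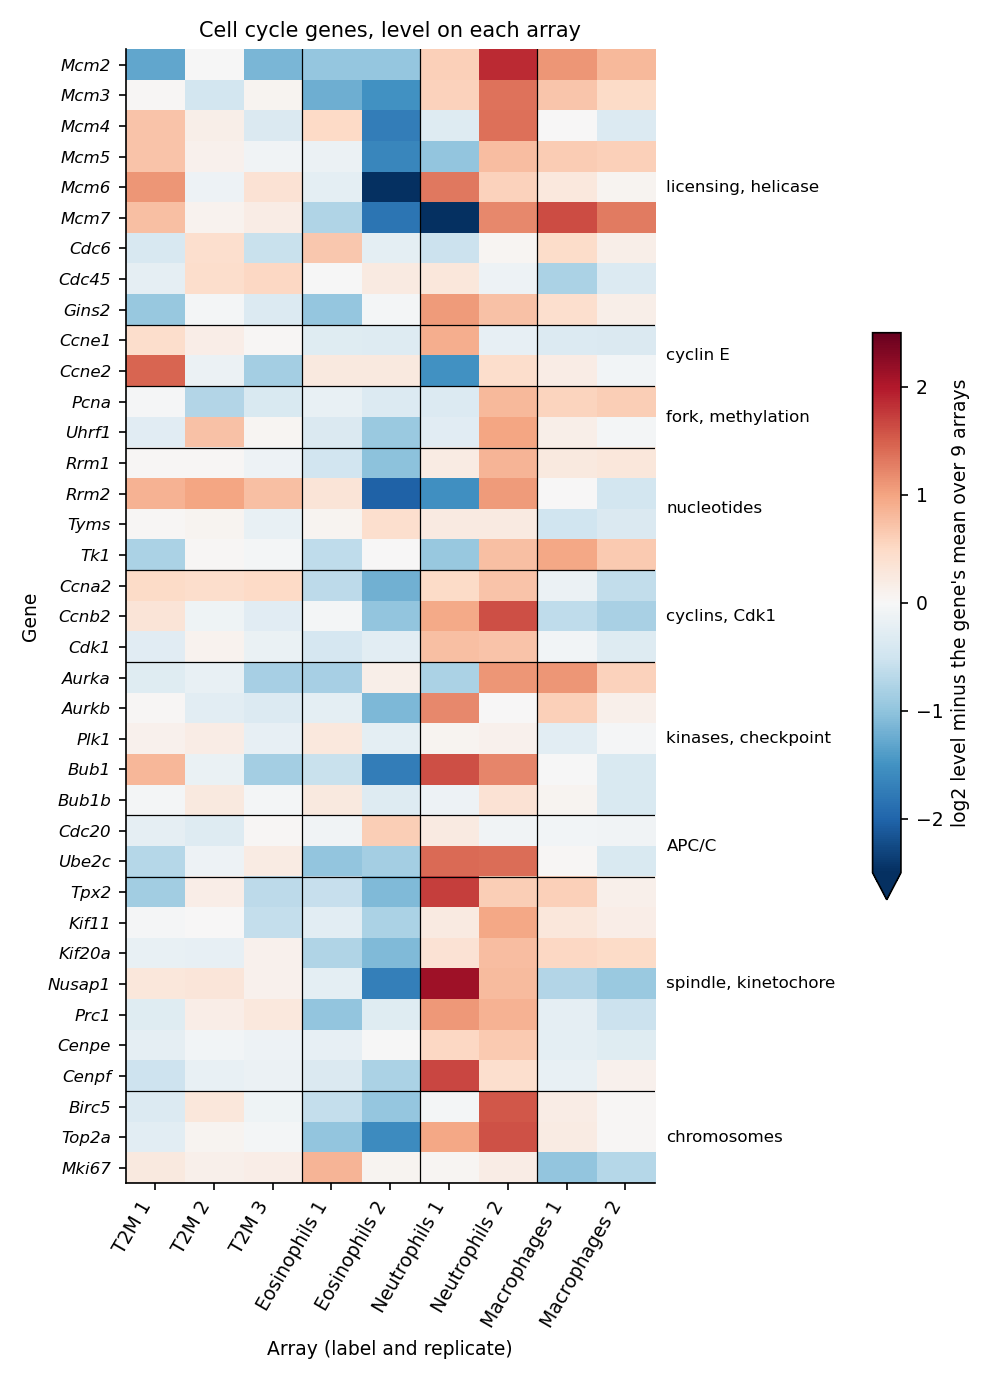
Log2 level of each of 37 cell cycle genes on each of 9 arrays, minus the gene's mean over the arrays (colour, red above and blue below the mean; values below -2.5 share the darkest blue). Rows are grouped by role; the median log2 level of the 37 genes is highest on the neutrophil-labelled arrays (7.07 and 7.59) and lowest on eosinophil replicate 2 (5.97), and only Mcm6 on eosinophil replicate 2 and Mcm7 on neutrophil replicate 1 lie below the colour range.

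The widest gap was between the neutrophil and eosinophil labels. Of the 37 genes, 14 were called higher in the neutrophil label (limma, adjusted p under 0.05 by the Benjamini-Hochberg method across the 18193 genes) and 0 lower, against 4.33% of all genes called higher, 3.55% called lower and 7.88% called in either direction. At an unadjusted p under 0.05, 20 of the 37 differed, against 3932 of all 18193 genes. Of all calls in this comparison 55% were higher, or 43.4% after shifting the arrays to a common median. The median difference of the 37 genes was 1.13 on the log2 scale, against 0.07 for all genes. In 22 of the 37 every neutrophil-labelled array was above every eosinophil-labelled array, and in 0 below, against 23.7% and 16.7% of all genes. The 14 genes were Top2a, Bub1, Nusap1, Mcm3, Ube2c, Mcm2, Tpx2, Ccnb2, Prc1, Cenpf, Ccna2, Kif20a, Rrm1 and Cdk1, with differences of 1.08 to 2.56. Of these 14, 1 stayed called when only the arrays of both labels were fitted, and 3 with array weights, with all 14 differences positive in both fits. The count of 14 fell to 4 without eosinophil replicate 2, to 6 without either macrophage array, to 8 without T2M replicate 3 and to 9 without eosinophil replicate 1. All 14 differences stayed positive whichever array was left out, and Top2a, Ube2c and Mcm3 were called in all 9 such fits. Without neutrophil replicate 2, the array nearest the macrophage arrays, 9 of the 14 remained called, and the median difference of the 37 genes was 0.76.

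**Figure D2:**
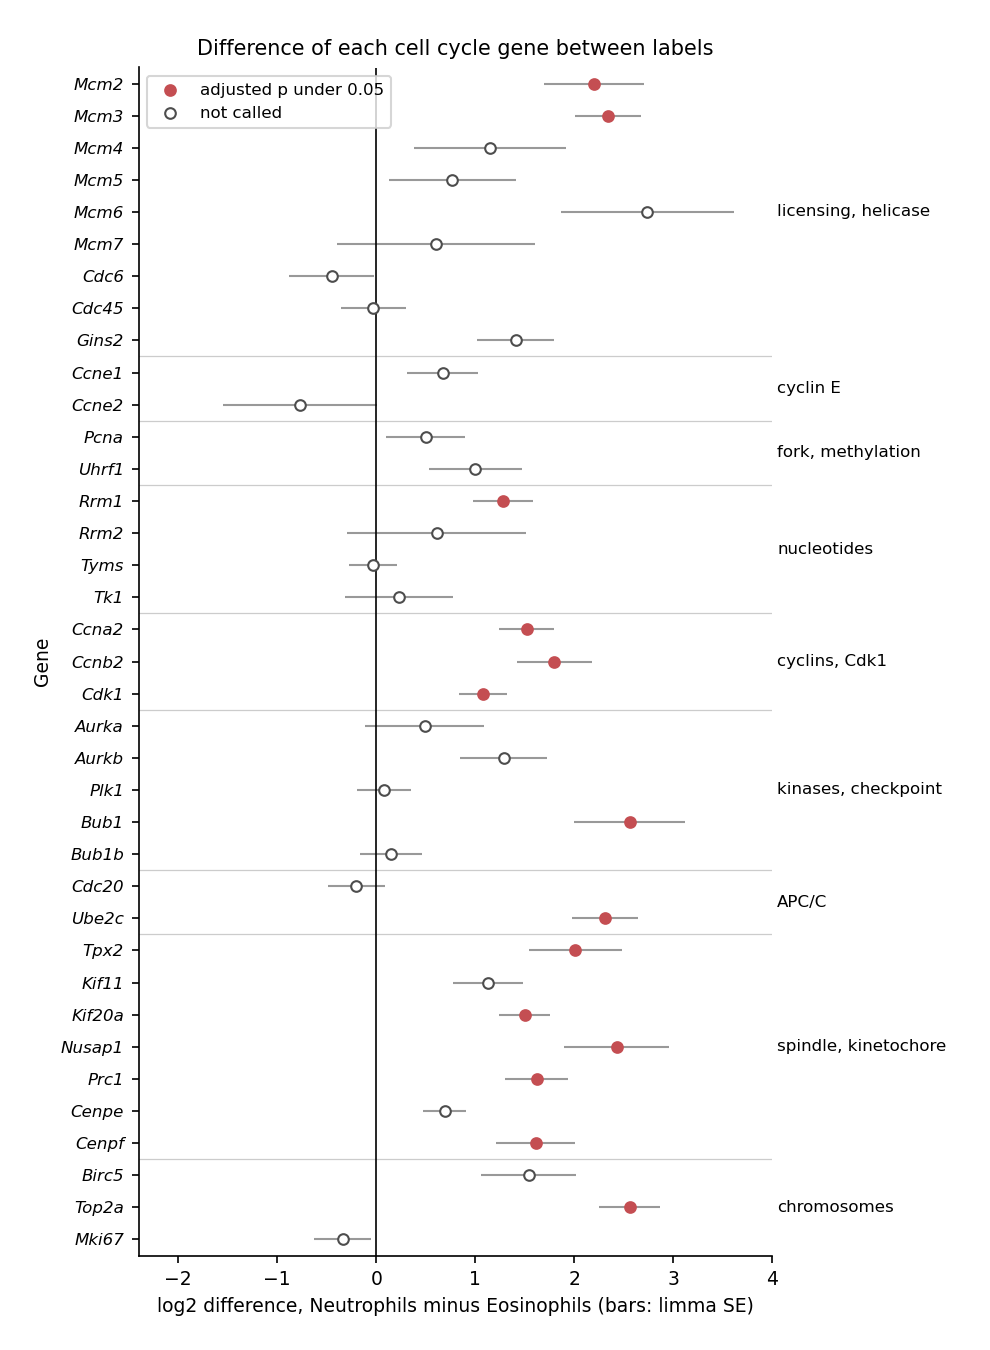
Log2 difference of each of 37 genes between the neutrophil (n = 2) and eosinophil (n = 2) labels, with bars of 1 limma standard error; filled points had an adjusted p under 0.05. Of the 37 points 31 lie right of 0, the 7 spindle and kinetochore genes among them.

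Genes of mitosis carried most of these calls. Among the 20 measured mitosis genes, 11 were called higher in the neutrophil than in the eosinophil label, with a median difference of 1.51. Among the 17 replication genes 3 were called, with a median of 0.67. Across all refits the mitosis median ran from 1.14 to 1.69 and the replication median from 0.17 to 1.60, ranges that overlap. A difference between both groups of genes was not tested.

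**Figure D3:**
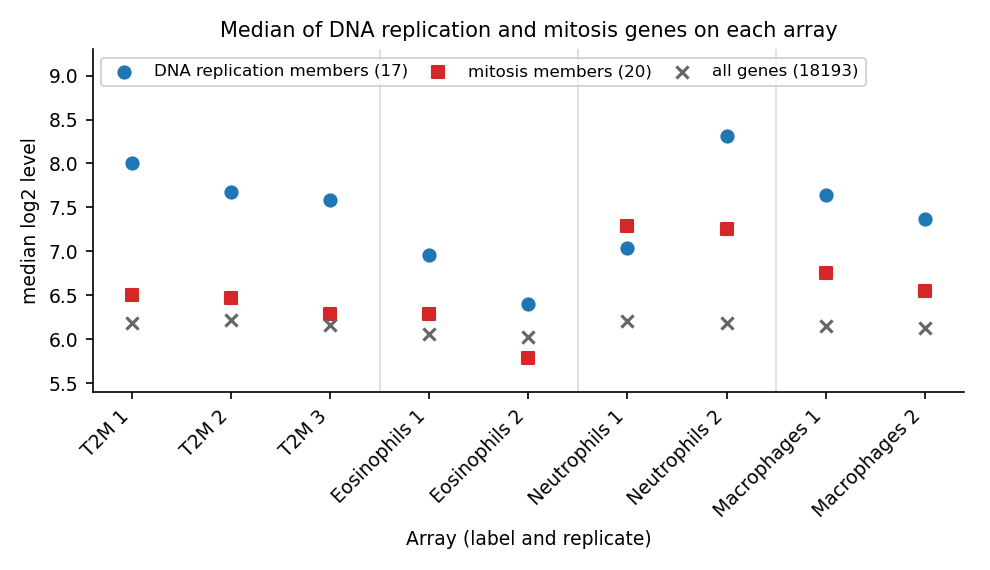
Median log2 level of 17 DNA replication genes (circles), 20 mitosis genes (squares) and all 18193 genes (crosses) on each of 9 arrays; probe sets differ in brightness, so only the same symbol may be compared between arrays. The squares are highest on both neutrophil-labelled arrays (7.29 and 7.26), whereas the circles differ between these arrays (7.04 and 8.31).

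Among the licensing and helicase genes, Mcm3 and Mcm2 separated the labels. Mcm3 read 8.69 and 9.46 on the neutrophil-labelled arrays, 6.89 and 6.59 on the eosinophil-labelled, 8.14, 7.66 and 8.18 on the T2M and 8.81 and 8.58 on the macrophage-labelled arrays. The eosinophil-labelled arrays were thus the lowest, apart from all others. Mcm3 was higher in the neutrophil than in the eosinophil label by 2.34 (SE 0.33, limma adjusted p = 0.00586), and higher in the macrophage than in the eosinophil label by 1.96 (SE 0.33, limma adjusted p = 0.00567). All 5 of its probe sets gave a higher neutrophil than eosinophil mean, by 1.30 to 2.34. Mcm2, another subunit of the same ring, read 7.0 and 8.27 on the neutrophil-labelled, 7.50 and 7.22 on the macrophage-labelled, 5.44 on each eosinophil-labelled, and 5.10, 6.39 and 5.26 on the T2M arrays. It formed a high and a low pair of labels that did not overlap. It was higher by 2.20 (SE 0.51, limma adjusted p = 0.038) in the neutrophil than in the eosinophil label. The macrophage label was above the eosinophil label by 1.92 (SE 0.51, limma adjusted p = 0.0367), and T2M below the macrophage label (difference -1.77, SE 0.47, limma adjusted p = 0.0367). Of the 9 fits that left out an array, 3, 4 and 3 kept these calls. With the mean of its probe sets the T2M minus macrophage difference was -1.13 and not called.

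The other helicase subunits, on the probe sets used, spread widely between replicates. Mcm7 ran from 5.54 to 9.31 within the neutrophil label and Mcm5 from 7.07 to 8.83, while within the eosinophil label Mcm6 ran from 4.47 to 7.57 and Mcm4 from 6.82 to 9.06. Their other probe sets gave neutrophil minus eosinophil differences of 1.34 (Mcm4), 2.81 and 0.49 (Mcm5), 1.82 and 0.13 (Mcm6), and -0.33, 1.58 and 0.19 (Mcm7). In the Mcm5 set with 2.81, the neutrophil-labelled arrays read 7.27 and 8.34 and the eosinophil-labelled arrays 5.15 and 4.86. On the probe sets used, Mcm6 had the largest neutrophil minus eosinophil difference of all 37 genes, 2.74, but with an SE of 0.87 it was not called (limma adjusted p = 0.098). On eosinophil replicate 2, Mcm4, Mcm5 and Mcm6 each had their lowest value of the 9 arrays. Gins2, a subunit of the GINS complex, was at 7.94 or more on the neutrophil-labelled arrays and at most 7.64 elsewhere, and its difference of 1.41 against the eosinophil label (SE 0.39) was not called (limma adjusted p = 0.0687). Cdc6, the loading factor, spanned 4.76 to 5.98 and Cdc45 5.85 to 7.16 over all arrays, with differences of -0.45 and -0.03 between the neutrophil and eosinophil labels.

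Cyclin E, the partner of Cdk2 at the start of replication, was called in none of the 6 comparisons, whether from Ccne1 (7.19 to 8.47 over the arrays) or Ccne2 (3.69 to 6.66). Pcna, the sliding clamp, read 10.17 and 11.33 on the neutrophil-labelled, 11.07 and 11.13 on the macrophage-labelled, 10.33 and 10.16 on the eosinophil-labelled, and 10.49, 9.78 and 10.14 on the T2M arrays. It was called in no comparison, and neutrophil replicate 1 lay within the range of the eosinophil-labelled and T2M arrays while replicate 2 lay above both macrophage arrays. Uhrf1, which brings maintenance DNA methylation to new strands, spanned 6.40 to 8.31 and was not called either.

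Of the nucleotide synthesis genes, Rrm1, the large subunit of ribonucleotide reductase, was called. It read 8.60 and 9.23 on the neutrophil-labelled, 8.62 and 8.66 on the macrophage-labelled, 8.42, 8.42 and 8.25 on the T2M and 7.91 and 7.36 on the eosinophil-labelled arrays, which were again the lowest. The neutrophil label was above the eosinophil label by 1.28 (SE 0.30, limma adjusted p = 0.036), a call lost in 7 of the 9 fits that left out an array. Rrm2, the small subunit that cells make in S phase, ran from 8.75 to 8.97 on the T2M arrays, but from 6.45 to 9.05 within the neutrophil and from 5.97 to 8.31 within the eosinophil label. Thymidine kinase Tk1 spanned 4.86 to 6.77 and thymidylate synthase Tyms 5.17 to 6.08, with no call for either.

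All 3 measured genes of the mitotic cyclins and their kinase were called higher in the neutrophil than in the eosinophil label. Ccnb2, cyclin B2, read 7.53 and 8.20 on the neutrophil-labelled arrays. It read 6.90, 6.47 and 6.29 on the T2M, 6.53 and 5.60 on the eosinophil-labelled and 5.94 and 5.76 on the macrophage-labelled arrays, so that the neutrophil label stood alone. It was above the eosinophil label by 1.80 (SE 0.38, limma adjusted p = 0.0273), and the macrophage label was below the neutrophil label (difference -2.02, SE 0.38, limma adjusted p = 0.0366), a call kept in 4 of the 9 fits that left out an array. Cdk1, the kinase of mitosis, read 7.62 and 7.59 on the neutrophil-labelled arrays and between 6.45 and 6.96 on the 7 others. Its difference from the eosinophil label was 1.08 (SE 0.24, limma adjusted p = 0.0302), a call lost in 7 of the 9 fits that left out an array. Ccna2, cyclin A2 of S and G2 phase, was also high in T2M on the brighter of its 2 probe sets. It read 8.20, 8.15 and 8.22 on the T2M arrays, next to 8.19 and 8.43 on the neutrophil-labelled arrays, against 7.57 and 7.09 on the macrophage-labelled and 7.06 and 6.52 on the eosinophil-labelled arrays. On the other probe set the T2M arrays read 6.71, 6.44 and 5.70 and overlapped the eosinophil-labelled arrays, at 6.56 and 5.50. The neutrophil minus eosinophil difference of that probe set was 0.77. With the mean of both probe sets, Ccna2 was not called in T2M against the eosinophil label. On the probe set used, Ccna2 was higher by 1.52 in the neutrophil label (SE 0.28, limma adjusted p = 0.0163) and by 1.40 in T2M (SE 0.26, limma adjusted p = 0.0222), both against the eosinophil label. Without eosinophil replicate 2 these differences were 1.25 and 1.13, and neither was called.

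Of the mitotic kinases and checkpoint genes, only Bub1 was called. Bub1, a kinase of the spindle checkpoint, read 6.37 and 5.99 on the neutrophil-labelled arrays, 5.59, 4.60 and 3.92 on the T2M, 4.76 and 4.39 on the macrophage-labelled, and 4.21 and 3.04 on the eosinophil-labelled arrays. The neutrophil-labelled arrays were the highest, and the T2M arrays spread widely. The neutrophil label was above the eosinophil label by 2.56 (SE 0.56, limma adjusted p = 0.030), a call kept in 4 of the 9 fits that left out an array. Its other probe set gave 0.55 and the mean of both 1.55, which was called. Aurka, a kinase of the spindle poles, ran from 5.18 to 7.07 within the neutrophil label and was called in no comparison. Aurkb, the kinase of the chromosomal passenger complex, was 1.29 higher in the neutrophil than in the eosinophil label (SE 0.44) and was not called (limma adjusted p = 0.126). Plk1 (5.84 to 6.37) and Bub1b (5.50 to 6.23) were nearly flat over all arrays.

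Of the anaphase-promoting complex genes, Ube2c was called and Cdc20 was not. Ube2c read 9.98 and 9.96 on the neutrophil-labelled arrays, against 7.86, 8.44 and 8.78 on the T2M, 8.59 and 8.18 on the macrophage-labelled and 7.59 and 7.72 on the eosinophil-labelled arrays. No other array came within 1 log2 unit of the neutrophil-labelled pair. Ube2c was higher in the neutrophil than in the eosinophil label by 2.31 (SE 0.33, 4.97-fold, limma adjusted p = 0.00597), called in all 10 other processing settings and all 9 fits without 1 array. T2M was below the neutrophil label (difference -1.61, SE 0.30, limma adjusted p = 0.0342), a call kept in 1 of those 9 fits. Cdc20, the activator of the same complex, spanned 6.47 to 7.40 and had its highest value on eosinophil replicate 2.

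The 7 spindle and kinetochore genes were all higher on both neutrophil-labelled than on both eosinophil-labelled arrays, and 5 were called. Nusap1, which bundles spindle microtubules, read 9.65 and 8.33 on the neutrophil-labelled arrays, 7.82, 7.83 and 7.64 on the T2M, 7.29 and 5.82 on the eosinophil-labelled and 6.80 and 6.61 on the macrophage-labelled arrays. Its difference was 2.43 (SE 0.53, limma adjusted p = 0.0302), while its second probe set, dim at a mean of 4.04, gave -0.17. With the mean of both probe sets the difference was 1.13, still called, and the call was kept in 3 of the 9 fits that left out an array. Tpx2, which activates Aurora A on the spindle, read 7.48 and 6.36 on the neutrophil-labelled, 6.35 and 5.87 on the macrophage-labelled, 4.87, 5.91 and 5.09 on the T2M and 5.17 and 4.64 on the eosinophil-labelled arrays. Its difference was 2.01 (SE 0.47, limma adjusted p = 0.0385), and neutrophil replicate 2 lay next to macrophage replicate 1. The call of Tpx2 was kept in 3 of the 9 fits that left out an array. With the mean of its 4 probe sets, of which the others gave 1.55, 0.25 and 0.13, the difference was 0.99 and not called.

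Prc1, a bundler of the central spindle, read 7.10 and 6.89 on the neutrophil-labelled arrays and between 5.03 and 6.28 on all others, a difference of 1.62 from the eosinophil label (SE 0.32, limma adjusted p = 0.0204). Cenpf, a kinetochore protein, read 6.36 and 5.10 on the neutrophil-labelled arrays and between 3.90 and 4.79 elsewhere. Its difference was 1.61 (SE 0.40, limma adjusted p = 0.0481), and 0.98 without neutrophil replicate 1. The call of Cenpf was kept in 1 of the 9 fits that left out an array. Its other probe sets gave 1.64 and 0.22, the first with 4.66 and 6.36 on the neutrophil-labelled arrays. Kif20a, a motor of the central spindle, read 7.48 and 7.90 on the neutrophil-labelled, 7.64 and 7.60 on the macrophage-labelled, 6.93, 6.91 and 7.23 on the T2M and 6.36 and 6.02 on the eosinophil-labelled arrays. In Kif20a the macrophage label stood with the neutrophil label, above the eosinophil label by 1.43 (SE 0.26, limma adjusted p = 0.00806) and 1.50 (SE 0.26, limma adjusted p = 0.0128). The motors Kif11 and Cenpe differed by 1.13 and 0.69 between the neutrophil and eosinophil labels and were not called.

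Top2a, which untangles replicated chromosomes, read 7.75 and 8.38 on the neutrophil-labelled arrays, 6.53, 6.86 and 6.73 on the T2M, 6.99 and 6.81 on the macrophage-labelled and 5.79 and 5.22 on the eosinophil-labelled arrays. The 3 levels did not overlap, with T2M and macrophage arrays in between. The neutrophil label was above the eosinophil label by 2.56 (SE 0.31, 5.89-fold, limma adjusted p = 0.00344), T2M was below the neutrophil label (difference -1.36, SE 0.28, limma adjusted p = 0.0459), and the macrophage label was above the eosinophil label by 1.39 (SE 0.31, limma adjusted p = 0.0179). Its other probe sets gave neutrophil minus eosinophil differences of -0.22 and 0.42, and with the mean of all probe sets the difference was 0.92 and not called. On that mean T2M minus neutrophil was -0.47 and macrophage minus eosinophil 0.38, neither called. The T2M minus neutrophil call was kept in 1 of the 9 fits that left out an array. Birc5 (survivin) had means of 6.65 and 5.11 in the neutrophil and eosinophil labels, a difference of 1.54 (SE 0.48) that was not called (limma adjusted p = 0.0968).

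Mki67, which encodes the Ki-67 protein used to mark cycling cells, was not higher in the neutrophil label. It read 10.56 and 9.78 on the eosinophil-labelled, 9.96, 9.84 and 9.89 on the T2M, 9.77 and 9.90 on the neutrophil-labelled and 8.73 and 9.0 on the macrophage-labelled arrays. The macrophage-labelled arrays were apart and lowest, and the others overlapped. The macrophage label was below the eosinophil label (difference -1.31, SE 0.29, limma adjusted p = 0.0184). T2M was above the macrophage label by 1.03 (SE 0.27, limma adjusted p = 0.0337), a call kept in 4 of the 9 fits that left out an array. The neutrophil minus eosinophil difference was -0.34 (SE 0.29) and was not called.

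**Figure D4:**
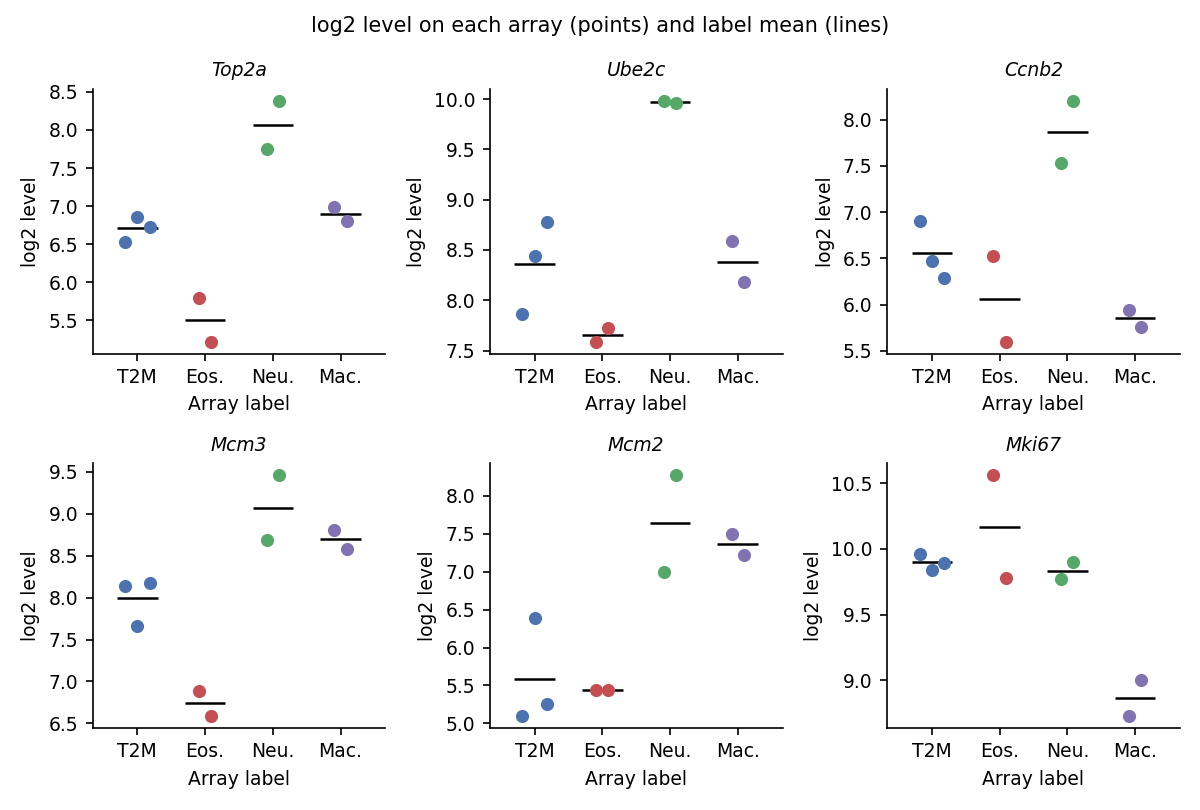
Log2 level of 6 genes on each array (points; T2M n = 3, eosinophil, neutrophil and macrophage labels n = 2 each) with the mean of each label (lines); each panel has its own axis. The neutrophil-labelled arrays are highest for Top2a, Ube2c and Ccnb2, share the high level with the macrophage-labelled arrays for Mcm2, and Mki67 is lowest in the macrophage label.

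The other 5 comparisons gave fewer calls. They share arrays with the neutrophil and eosinophil comparison and with each other. Between the macrophage and eosinophil labels, 4 genes were higher (Mcm2, Mcm3, Kif20a and Top2a) and 1 lower (Mki67), against 11.5% and 5.89% of all genes and 17.4% in either direction, with a median of 0.70 against -0.18 for all genes. The share called, 5 of 37, was near that background. In 21 genes the macrophage-labelled arrays were above both eosinophil-labelled arrays and in 6 below, against 31.7% and 46.1% of all genes. The licensing and helicase genes had a median of 1.50 there and the mitotic cyclins with Cdk1 a median of 0.15. The count was 2 without eosinophil replicate 2, 0 without macrophage replicate 1, and 1 without macrophage replicate 2. Between the macrophage and neutrophil labels, Ccnb2 was the 1 call of 37, against 2.26% of all genes in either direction (1.13% lower), with a median of -0.61 against -0.17. In 18 genes the macrophage-labelled arrays were below both neutrophil-labelled arrays and in 2 above, against 36.8% and 23.1% of all genes. Without neutrophil replicate 2, 8 genes were called, 6 of them lower in the macrophage label. Without neutrophil replicate 1, T2M replicate 2 or 3, or either macrophage array, 0 were called, and without T2M replicate 1 or either eosinophil-labelled array 2 were called.

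Few of these genes were called between T2M cells and the other labels. Against the eosinophil label 1 gene of 37 was called, Ccna2, against 4.46% of all genes (1.57% higher, 2.89% lower), with a median of 0.48 against 0.06 for all genes. Of all calls there 35.2% were higher, or 24.2% after shifting the arrays to a common median. In 14 genes the T2M arrays were above both eosinophil-labelled arrays and in 1 below, against 19.4% and 14% of all genes. Of the 37, 9 genes had an unadjusted p under 0.05, against 3113 of all 18193 genes. Ccna2 was not called without T2M replicate 2 or 3 or eosinophil replicate 2, 2 genes were called without eosinophil replicate 1, and 4 without either neutrophil-labelled array. Against the neutrophil label 2 genes were lower, Ube2c and Top2a, and 0 higher, against 1.57% and 1.25% of all genes and 2.82% in either direction, with a median of -0.59 against -0.03. An unadjusted limma p under 0.05 was found for 15 of the 37, against 2955 of all 18193 genes. In 17 genes the T2M arrays were below both neutrophil-labelled arrays and in 0 above, against 15.1% and 10.7% of all genes. Those 17 included all 7 spindle and kinetochore genes, with a median of -0.94 and 0 called by limma. Of all calls there 44.4% were higher, or 60.5% after quantile normalization. That count was 1 without T2M replicate 1 or 2, 4 without neutrophil replicate 1, and 0 without T2M replicate 3, either eosinophil-labelled or either macrophage array.

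Against the macrophage label T2M had 1 gene higher (Mki67) and 1 lower (Mcm2), against 6.53% and 10.6% of all genes and 17.2% in either direction. Their median difference was -0.02, against 0.18 for all genes. In 9 genes the T2M arrays were above both macrophage arrays and in 11 below, against 40.7% and 27.7% of all genes. The count was 1 without T2M replicate 1 or 2 or either eosinophil-labelled array, 0 without T2M replicate 3 or either macrophage array, and 6 without either neutrophil-labelled array.

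As a rough level reference, 39 olfactory receptor genes, which leukocytes are not known for, had a 95th percentile of 4.88 to 5.60 over the arrays. Between 30 and 36 of the 37 cell cycle genes were above it on each array. Probe sets differ in brightness, so this is a guide only. Of the genes called against the eosinophil label, Bub1, Tpx2 and Cenpf were below it on both eosinophil-labelled arrays, and Top2a and Prc1 on 1 of the 2, so that these differences have no exact size. Of the other genes Birc5 was below it on both, and Mcm6, Cdc6, Aurka and Tk1 on 1. Cenpf was above it on neutrophil replicate 1 alone. Mcm2 was below it on T2M replicates 1 and 3, at 5.1 and 5.26 against 5.42 and 5.36. The T2M minus macrophage difference of Mcm2 thus has no exact size either.

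Other genes of the same pathways were called at about the background rate, while more of them than of all genes stood higher in the neutrophil label. Of 57 other replication genes measured of 60 listed, 3 were higher and 1 lower in the neutrophil than in the eosinophil label, against the 4.33% and 3.55% of all genes, with a median of 0.35. Higher were Pole3 (1.84, SE 0.26), a small subunit of DNA polymerase epsilon, Ung (1.83, SE 0.34), which removes uracil from DNA, and Cdc7 (1.41, SE 0.28), the kinase that fires origins. Dck, the deoxycytidine kinase, was lower (-2.27, SE 0.45). Of 69 other mitosis genes of 71 listed, 5 were higher and 2 lower, with a median of 0.53. Higher were, among others, the condensin subunit Smc2 (2.12, SE 0.53), the kinetochore gene Spc24 (1.55, SE 0.31) and Cdca3 (1.44, SE 0.34), which was 0.41 with the mean of its probe sets. Pole3 and Spc24 were below the olfactory receptor reference on both eosinophil-labelled arrays, and Cdc7 and Smc2 on 1. Shares of 3 of 57 and 5 of 69 lie near the background of 4.33%, beside 14 of 37 for the genes above. Differences were positive in 44 of the 57 and 51 of the 69, against 10174 of all 18193 genes. Every neutrophil-labelled array was above every eosinophil-labelled array in 21 and 33, and below in 5 and 8, against 23.7% and 16.7% of all genes. An unadjusted limma p under 0.05 was found for 18 and 26, against 3932 of all genes.

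In the macrophage label more of the wider replication list was called against the eosinophil label than in the neutrophil label. More of all genes were called higher there too, 11.5% against 4.33%, and the difference in counts was not tested. Directly between the macrophage and neutrophil labels 0 of the 57 were called, with a median of 0.44. In the macrophage against the eosinophil label 12 of 57 were higher and 2 lower, where 11.5% and 5.89% of all genes were, with a median of 0.87. Among the called genes the largest differences were those of Dna2 (2.68, SE 0.52), a helicase and nuclease, Tipin (2.43, SE 0.52), a fork protection protein, and Dut (2.27, SE 0.50), the dUTPase. Tipin was below the reference on eosinophil replicate 2. Among 69 other mitosis genes 6 were higher and 5 lower. The lower ones included Lmnb1 (-4.47, SE 0.28), which encodes lamin B1 of the nuclear envelope, and Cks2 (-2.83, SE 0.46), a small subunit of cyclin-dependent kinase complexes. Across all refits the replication count ran from 0 to 25 higher and the mitosis count from 0 to 13 higher.

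Lmnb1 and Cks2 were the 2 other mitosis genes called lower in the neutrophil label. Lmnb1 read 12.07 and 11.89 on the eosinophil-labelled, 10.93, 10.76 and 11.26 on the T2M, 9.43 and 9.76 on the neutrophil-labelled and 7.73 and 7.28 on the macrophage-labelled arrays, with no overlap between any of the 4 labels. It was lower in the neutrophil than in the eosinophil label (-2.38, SE 0.28, limma adjusted p = 0.00327). Cks2 read 11.96 and 11.55 on the eosinophil-labelled and 8.05 and 9.27 on the neutrophil-labelled arrays (-3.10, SE 0.46, limma adjusted p = 0.00729). The eosinophil-labelled arrays were the highest of the 9 for both.

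Among 28 regulators of the G1 to S transition, Lin9 separated the labels. Lin9, a subunit of the MuvB core, read 6.43 and 6.45 on the neutrophil-labelled, 6.79 and 6.73 on the macrophage-labelled, 4.69, 4.76 and 5.06 on the T2M and 3.94 and 4.43 on the eosinophil-labelled arrays. The neutrophil and macrophage labels were above the other two without overlap. All T2M and eosinophil-labelled values lay below the olfactory receptor reference, so that the differences of Lin9 have no exact size. Lin9 was higher than in the eosinophil label by 2.26 in the neutrophil label (SE 0.26, limma adjusted p = 0.00295) and by 2.58 in the macrophage label (SE 0.26, limma adjusted p = 0.000662). It was lower in T2M than in both the neutrophil label (-1.61, SE 0.24, limma adjusted p = 0.0172) and the macrophage label (-1.92, SE 0.24, limma adjusted p = 0.00202). The other listed MuvB subunits, Lin37, Lin52 and Lin54, had neutrophil minus eosinophil differences of 0.62, 0.02 and -0.79, none called. Lin37 was called higher in the macrophage than in the eosinophil label (1.43, SE 0.24). It was also called lower in T2M than in the macrophage label (-0.88, SE 0.22). Of the 28, 2 were higher in the neutrophil than in the eosinophil label, Lin9 and Myc (2.49, SE 0.54), the growth transcription factor, and 0 lower, near the 4.33% and 3.55% of all genes.

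Cyclin D1 instead marked the macrophage label. Ccnd1, the cyclin that answers growth signals in G1, read 9.80 and 9.40 on the macrophage-labelled arrays and between 6.43 and 8.12 on all others. It was higher than in the eosinophil label by 2.98 (SE 0.41, limma adjusted p = 0.00241), higher than in the neutrophil label by 3.10 (SE 0.41, limma adjusted p = 0.00778), and lower in T2M than in the macrophage label (-2.23, SE 0.37, limma adjusted p = 0.00713). Against the eosinophil label 7 of the 28 regulators were higher in the macrophage label and 0 lower, against 11.5% and 5.89% of all genes. Among the 7 was E2f6 (2.99, SE 0.66), a repressor of the E2F family, which read 4.34 and 4.62 on the eosinophil-labelled arrays, below the olfactory receptor reference, so that its difference has no exact size. Foxm1 and Mybl2, which activate mitotic genes, were called in none of the 6 comparisons, with neutrophil minus eosinophil differences of 0.17 and 0.00, and Mybl2 had label means of at most 3.96.

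Among the brakes of the cycle, Gadd45a differed most. Of 24 measured, 4 were lower and 1 higher in the neutrophil than in the eosinophil label, against 3.55% and 4.33% of all genes, with a median of 0.07. Gadd45a, a growth arrest gene induced by DNA damage, read 11.65 and 11.23 on the eosinophil-labelled, 10.88, 11.08 and 11.45 on the T2M, 7.16 and 8.22 on the neutrophil-labelled and 6.53 and 6.23 on the macrophage-labelled arrays. It was lower in the neutrophil than in the eosinophil label (-3.75, SE 0.38, limma adjusted p = 0.002), lower in the macrophage than in the eosinophil label (-5.06, SE 0.38, limma adjusted p = 0.000204) and higher in T2M than in the neutrophil label (3.45, SE 0.35, limma adjusted p = 0.0056). Cyclin G2, from Ccng2 (-2.81, SE 0.46), and the inhibitor p27, from Cdkn1b (-2.28, SE 0.36), were also lower in the neutrophil than in the eosinophil label, whereas Klf4 (1.94, SE 0.38) was higher. Cdkn1a, the inhibitor p21, read 11.49 and 11.59 on the eosinophil-labelled and 10.79 and 11.49 on the neutrophil-labelled arrays, against 8.48 and 8.17 on the macrophage-labelled arrays. It was lower in the macrophage than in the eosinophil label (-3.21, SE 0.32, limma adjusted p = 0.000635).

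**Figure D5:**
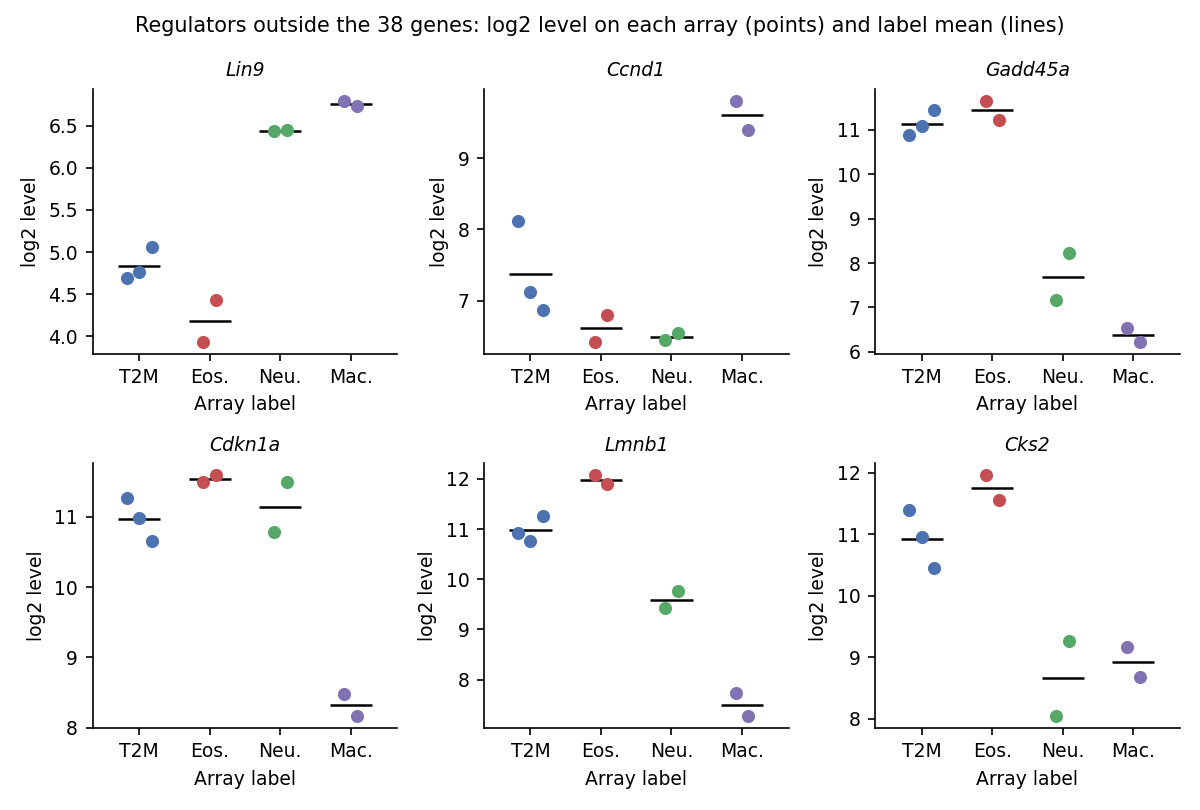
Log2 level of 6 genes outside the 38 on each array (points; T2M n = 3, other labels n = 2 each) with the mean of each label (lines); each panel has its own axis. Lin9 is high on the neutrophil- and macrophage-labelled arrays, Ccnd1 on the macrophage-labelled arrays, and Gadd45a, Lmnb1 and Cks2 on the eosinophil-labelled and T2M arrays. Cdkn1a is lowest on the macrophage-labelled arrays (8.48 and 8.17).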

How the data were processed

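RNA of 9 sorted pools was measured on Affymetrix mouse arrays. The deposited values are log2 levels per probe set, made by the authors with RMA, affy and limma per the submitters' processing notes, where versions are not given in the sources used here. Of 45101 probe sets, 64 were controls, 34945 had 1 symbol in the platform annotation, 932 several and 9160 none; 34741 matched RefSeq (GRCm38.p6) by gene ID. Each of 18193 genes was read from its probe set with the highest mean, and 9010 genes had more than 1. The test was limma's moderated one (version 3.58.1 under R version 4.3.3), with 1 mean per label fitted to all 9 arrays, 6 two-sided contrasts and Benjamini-Hochberg adjustment across the genes, called under 0.05, with 5 residual degrees of freedom, a prior of 3.26 and a median standard error (SE) of 0.308 (T2M contrasts) or 0.337. The number of arrays limits this precision. P-values measure only the spread between these pools, and nothing in the labels says that their mice or sorts were independent. The fit was tested on simulated data.

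The genes and lists were chosen with earlier results of these data known. Values on every array are given for Mki67, Top2a, Pcna, Mcm2, Ccna2, Cdk1 and the other genes with a call. From wider lists, up to 3 called genes per direction and comparison and up to 2 uncalled are named, and examples with per-array values were picked among them. The MuvB subunits Lin37, Lin52 and Lin54 are named in addition. Alternatives covered probe set choice, a dim filter, scaling, moderation, array weights, fewer samples, the replicate number as a block, averaged macrophage arrays and leaving out arrays. Plots came from Python 3.11.15 and matplotlib 3.10.9.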

Additional observations from a re-analysis of the deposited data

How the results depend on the processing

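The alternatives changed how many of the 37 genes were called, and no gene of the 37 changed direction where it was called. Counts are given in the order T2M against the eosinophil, neutrophil and macrophage labels, then macrophage against neutrophil, macrophage against eosinophil and neutrophil against eosinophil, with 1, 2, 2, 1, 5 and 14 as reported. With the mean of all probe sets of a gene they were 0, 4, 1, 3, 5 and 12, and Ccnd2, among the other pathway genes, went from 1.13 to -0.09 in T2M against the macrophage label. After quantile normalization they were 3, 1, 2, 2, 4 and 12, and with a trended, robust prior 0, 0, 1, 1, 5 and 12. Array weights gave 4, 0, 17, 0, 15 and 3. With the macrophage arrays averaged to 1 they were 1, 0, 0, 0, 0 and 6, without both arrays with an actin end difference 1, 1, 2, 3, 4 and 9, and in fits of only the arrays of both labels 0, 0, 9, 0, 11 and 1. Without dim genes or after a shift to a common median no count moved by over 1.5 times. The number of all 18193 genes called moved with the settings too. Over all fits it reached 10163 for T2M against macrophage and 6400 for macrophage against eosinophil. A higher count of the 37 is thus not read as a gain particular to them. Leaving out 1 array gave 0 to 4, 0 to 4, 0 to 6, 0 to 8, 0 to 7 and 4 to 14. The cause of these changes was not tested. With the replicate number as a block the counts were 0, 0, 0, 0, 5 and 9; same-numbered samples had deviations correlating at 0.51 for T2M and eosinophil labels and -0.18 to 0.03 for other pairs of labels, so the numbers were not taken to pair samples. A shift to a common median moved the median of all genes from 0.07 to -0.09 for neutrophil against eosinophil, where 29 of the 37 genes were still positive. With 2 or 3 arrays a label, the smallest called difference among the 37 genes was 1.03, at a median SE over all genes of 0.308 or 0.337.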
